A study of Mus musculus with 23 samples.

Results

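Gab1 and the endogenous retroviral LTR in its first intron were followed through windows of DNA methylation in mouse embryos. A window belonged to the locus if its midpoint lay between 80760000 and 80885000 on chromosome 8 (GRCm38). This gave 30 of the 333984 windows measured at embryonic day 6.5 (E6.5) and 34 of the 402812 windows measured at E7.5. The 23 bisulphite libraries came from the epiblast, which forms the embryo proper, and from the extra-embryonic ectoderm (ExE), which contributes to the placenta. At E7.5 each library was made from 1 embryo, with 2 B6/CAST (C57BL6/Babr mother, CAST father) and 2 CAST/B6 (the reciprocal cross) libraries in each tissue, and reads had been sorted to the maternal and paternal genome. At E6.5 a library was the input of a pool of 4 epiblasts or 8 ExE. There were 3 B6/CAST, 3 CAST/B6 and 2 matDKO/CAST epiblast libraries and 2 B6/CAST, 2 CAST/B6 and 3 matDKO/CAST ExE libraries. Their alleles were not separated in the deposited table. The matDKO/CAST embryos had mothers homozygous for floxed Dnmt3a and Dnmt3b with a Zp3 driver, which acts in growing oocytes, on a B6/129 background, and fathers of strain CAST. Per the labels this abolishes DNA methylation in the oocyte and leaves embryos with 1 functional copy of each gene, from the father. They differ from B6/CAST embryos in maternal strain as well. Every value is a percentage of methylated calls per window. No number of reads accompanies it, and its depth is therefore unknown.

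GAB1 is a scaffolding adaptor: GRB2 brings it to activated receptor tyrosine kinases such as MET and EGFR, and once phosphorylated it recruits the phosphatase SHP2 and PI3-kinase to pass the signal on. Gab1 is needed for growth of the placental labyrinth and is known as an imprinted gene of extra-embryonic tissue. LTRs are the terminal repeats of endogenous retroviruses, which carry promoter and enhancer sequence and are usually kept methylated. In genomic imprinting the copies inherited from the mother and the father differ in expression, and a difference in DNA methylation between them is one of the marks that can accompany it.

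Gab1 lies on the minus strand between 80764438 and 80880519, so that its start site is at 80880519 and its end is at the lower coordinate. The LTR, an RLTR15 element at chr8:80859027-80859376 with a length of 350 bp, sits in intron 1 (80800396 to 80879531), 21.1 kb downstream of the start site and 58.6 kb before exon 2. A processed pseudogene, Gm7997, lies inside Gab1, and the antisense gene Gm31105 (80879940 to 80881169) overlaps its first exon. The element holds 6 CpG sites, all of which fall in the 300 bases at chr8:80859077-80859376. The first 300 bases around the promoter, at chr8:80880470-80880769, hold 26. Both are shown on the minus strand of GRCm38, 5′ to 3′, with each CpG in capitals, to show the sites in the LTR and around the start. The part of the promoter stretch above 80880639, which is printed first, lies beyond the E7.5 start-site window. Not all of its 26 CpGs therefore enter the value of that window.
RLTR15 at Gab1: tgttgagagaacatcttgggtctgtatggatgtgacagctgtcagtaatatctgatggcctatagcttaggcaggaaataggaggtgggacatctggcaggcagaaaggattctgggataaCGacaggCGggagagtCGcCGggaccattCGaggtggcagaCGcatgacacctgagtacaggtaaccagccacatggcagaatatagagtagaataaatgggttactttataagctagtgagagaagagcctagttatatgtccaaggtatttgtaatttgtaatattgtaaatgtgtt
Gab1 promoter: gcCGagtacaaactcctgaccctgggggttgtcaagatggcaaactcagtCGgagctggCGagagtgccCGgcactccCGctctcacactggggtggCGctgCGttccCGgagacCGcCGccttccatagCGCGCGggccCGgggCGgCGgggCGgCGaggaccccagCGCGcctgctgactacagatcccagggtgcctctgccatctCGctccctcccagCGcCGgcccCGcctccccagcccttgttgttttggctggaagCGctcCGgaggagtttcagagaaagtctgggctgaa
The promoter stretch is the RefSeq entry of GRCm38 for Gab1. Among 32851 mouse promoters of the same length in that collection the median number of CG dinucleotides (both strands read the same letters) was 7, 94.6% held at least 1, and 16.9% held as many as Gab1 or more. The CpGs of the LTR are clustered: they lie in its middle, flanked on both sides by stretches without any.

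At E7.5 the LTR was covered by 1 window (80858628 to 80861333, 2706 bp), which holds all 6 of its CpGs among 48 in all, so its value is mostly that of the sequence around the LTR. In ExE the maternal allele of this window was highly methylated and the paternal allele was not. In B6/CAST replicate 1 the maternal allele was at 76.1% and the paternal allele at 31.5%. In replicate 2 the values were 73.2% and 31.9%. In the reciprocal CAST/B6 embryos they were 82.9% and 27.6% in replicate 1 and 89.9% and 44.0% in replicate 2. The lowest maternal value was thus well above the highest paternal value, in both directions of the cross.

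The maternal minus paternal difference was 46.7 percentage points ± 5.99 (SD, n = 4), from 41.2 to 55.2, and maternal was the higher allele in 4 of 4 libraries. An exact sign-flip test over the libraries gave p = 0.13 (two-sided), the smallest value 4 libraries allow. In a limma fit over all 318358 autosomal windows with both alleles in every ExE library, the LTR window had an estimate of 46.7 points (SE 4.06) and an unadjusted p of 2.4e-05. After Benjamini-Hochberg adjustment this became 0.22, so the window did not pass the threshold of 0.05. Only 23 windows passed it genome-wide (percent called 0.00722), and none did when any 1 of the 4 libraries was left out. On a logit scale the adjusted p of the LTR window was 0.029. By size alone, 28 of the 318358 windows had a larger mean difference in ExE than the LTR window, and the mean over all of them was -0.0903 points ± 6.33 (SD over windows).

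The strain of the allele made a smaller difference than the parent. The difference averaged 42.9 points in B6/CAST and 50.6 in CAST/B6, and the B6 minus CAST term of the same fit was -3.84 points (SE 4.06, adjusted p = 0.82 in limma).

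**Figure D1:**
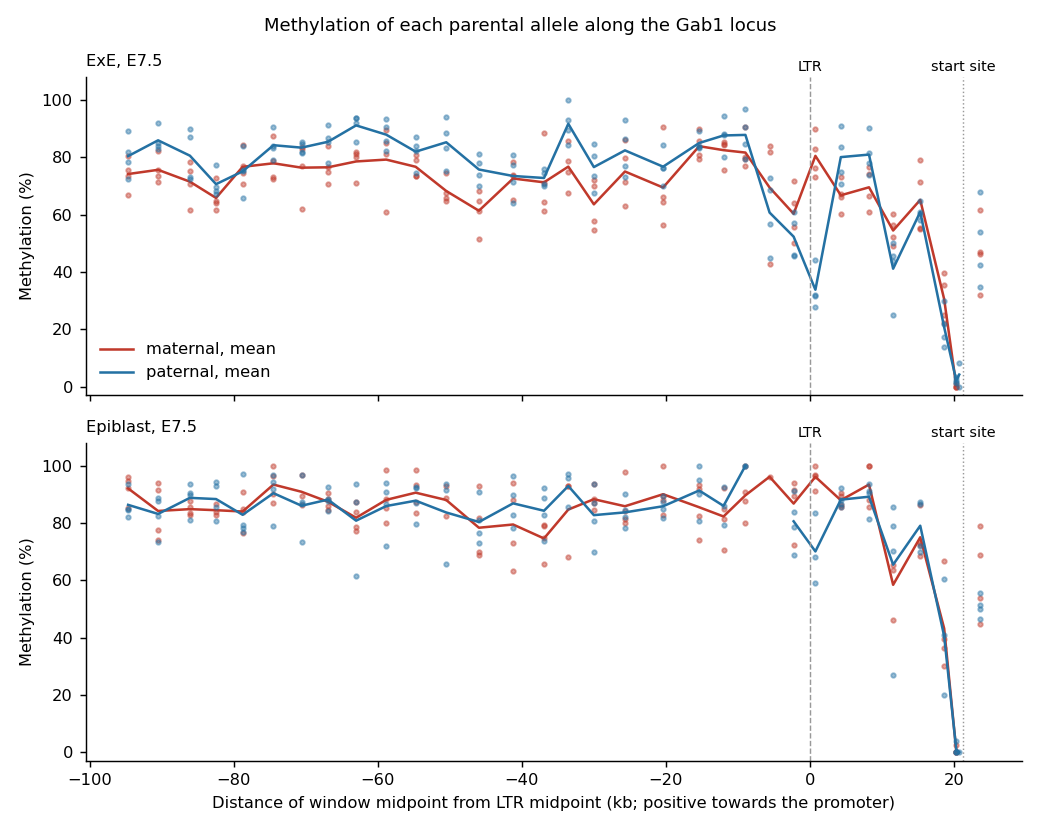
Percent methylation of the maternal (red) and paternal (blue) allele in the E7.5 windows of the Gab1 locus, in ExE (top) and epiblast (bottom), against the distance of the window midpoint from the LTR midpoint in kb; points are libraries, lines are means of the libraries with a value, and dashed and dotted lines mark the LTR and the start site. At the LTR the ExE alleles stand at 80.5% and 33.8%, and both are near 0 in the window at the end of exon 1; the start-site window has no allele values.

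In the epiblast the same window was more methylated on both alleles. The maternal allele was at 96.4%, 96.8%, 100% and 91.3% in B6/CAST replicates 1 and 2 and CAST/B6 replicates 1 and 2. The paternal allele had no value in B6/CAST replicate 1, and was at 83.3%, 68.0% and 58.9% in the other three libraries. Maternal was again the higher allele in all 3 libraries with both values, and no paternal value reached the lowest maternal one.

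The epiblast difference was 13.4, 32.0 and 32.4 points, with a mean of 25.9 ± 10.8 (SD, n = 3). With the 2 crosses weighted equally, limma estimated 22.8 points (SE 5.13), with an unadjusted p of 0.0088 and an adjusted p of 0.93. None of 288653 windows was called in the epiblast by limma, and 13708 (4.75%) had an unadjusted p under 0.05. The exact sign-flip test could not go below 0.25 and gave that value.

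Set against each other, the ExE difference exceeded every epiblast difference. Its mean was 20.8 points larger (exact permutation test of 4 against 3 libraries, two-sided p = 0.0571, the smallest possible). The limma interaction was 23.9 points (SE 6.24) with an unadjusted p of 0.0055 and an adjusted p of 0.90, and no window passed the threshold while 5.48% of 285418 had an unadjusted p under 0.05. A larger parental difference in ExE was therefore measured in every library but was not called across the genome.

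**Figure D2:**
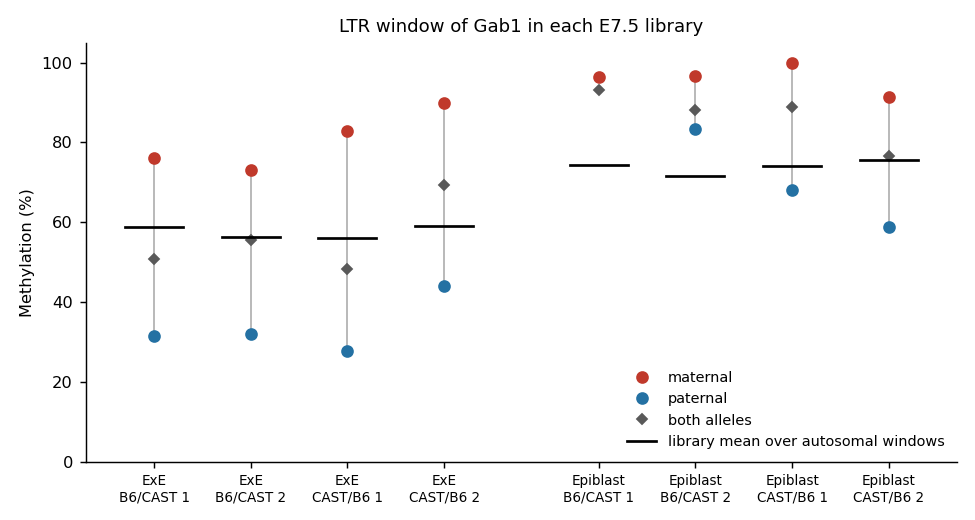
Percent methylation of the LTR window in each E7.5 library, for the maternal allele, the paternal allele and both together, with a bar for the mean of that library over all autosomal windows. The 4 ExE libraries hold the library mean between their 2 alleles, and the paternal value of epiblast B6/CAST 1 is missing.

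Both alleles of the LTR window were lower in ExE than in the epiblast, the maternal one by 15.6 points (-15.6) and the paternal one by 36.3 (-36.3). The maternal allele averaged 80.5% ± 7.47 (SD, n = 4) in ExE and 96.1% ± 3.59 (SD, n = 4) in the epiblast (exact permutation test, two-sided p = 0.0286, the smallest possible). The paternal allele averaged 33.8% ± 7.09 (SD, n = 4) in ExE and 70.1% ± 12.3 (SD, n = 3) in the epiblast (exact permutation p = 0.0571, again the smallest possible). Neither allele's ExE values overlapped its epiblast values.

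ExE is less methylated than the epiblast across the genome, so each allele was also set against its own library's mean over autosomal windows. The maternal allele of the LTR window stood 21.7 points ± 7.46 (SD, n = 4) above that mean in ExE and 20.6 ± 4.57 (SD, n = 4) above it in the epiblast (exact permutation p = 0.771). The paternal allele stood 25.2 points below it in ExE (-25.2 ± 5.94, SD, n = 4) and 5.45 points below it in the epiblast (-5.45 ± 14.7, SD, n = 3; exact permutation p = 0.114). Relative to its library the maternal allele was thus on average about as high in ExE as in the epiblast, but the crosses went opposite ways. In B6/CAST it stood 15.3 points above the mean in ExE and 21.7 in the epiblast, and in CAST/B6 28.0 and 19.6 (n = 2 each). The epiblast maternal values, from 91.3% to 100%, lay near the top of the scale. The paternal values ranged widely in the epiblast, from 10.4 above the mean in B6/CAST replicate 2 to 18.7 below it (-18.7) in CAST/B6 replicate 2.

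With both alleles together the LTR window was at 50.9%, 55.6%, 48.3% and 69.2% in the ExE libraries and at 93.3%, 88.1%, 88.9% and 76.7% in the epiblast libraries, in the order of B6/CAST 1 and 2 and CAST/B6 1 and 2. The groups did not overlap. ExE was lower by 30.7 points (limma estimate -30.7, SE 5.20, adjusted p = 0.00071), and this was the largest fall of the 34 windows of the locus. Across the locus 27 of 34 windows were lower in ExE and none was higher. Of all 383556 windows 82.9% were lower and 1.3% higher, so that the locus as a whole followed the background, with a median difference of -10.8 points against -16.5 over all windows. After each library's mean was subtracted the LTR window was still lower in ExE, by 14.4 points (estimate -14.4, limma adjusted p = 0.026). That fit called 72972 of the 383556 windows lower in ExE and 79745 higher. On that scale the groups overlapped, with CAST/B6 replicate 2 at 10.1 in ExE and at 1.09 in the epiblast (exact permutation p = 0.0571).

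On the side towards the end of the gene, the neighbour of the LTR window (80855316 to 80858599) ended just short of the LTR. Its maternal allele was at 71.6%, 64.0%, 50% and 55.6% in the ExE libraries in the same order. Its paternal allele was at 60.8%, 56.9%, 45.8% and 45.7%. Maternal was higher in 4 of 4 libraries (percent of all windows with this pattern 6.32), but by only 7.99 points ± 2.99 (SD, n = 4; limma adjusted p = 0.79), far less than in the LTR window. Both alleles of this window were low for the locus in ExE: with alleles together it was at 60.01% ± 6.15 (SD, n = 4) against 84.1% ± 2.36 (SD, n = 4) in the epiblast, the second-largest fall of the locus (-24.1 points, adjusted p = 0.00026). The next window (80851917 to 80855315) had both alleles in 3 ExE libraries, where maternal was 11.2 and 13.2 points higher and, in B6/CAST replicate 2, lower (-14.0).

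The run of neighbouring windows in which maternal was higher in every ExE library was therefore 2 windows long, from 80855316 to 80861333, or 6018 bp. Without B6/CAST replicate 2 it was 3 windows long, with the window at 80851917 to 80855315 included. With a mean of at least 20 points as the criterion it was the LTR window alone, in ExE as in the epiblast. No other window of the locus reached 20 points, and of all windows 0.267% did so in ExE.

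Farther along the gene body on this side, the sign turned. Of 24 windows, 23 had both alleles in all ExE libraries, and in 21 of those the mean difference was below 0, that is, paternal was higher. In 7 windows paternal was higher in 4 of 4 libraries (percent of all windows with this pattern 6.27). The mean over the 23 windows was -4.78 and -5.06 points in the B6/CAST libraries and -6.97 and -10.8 in the CAST/B6 libraries, all 4 negative (-6.89 ± 2.76, SD, n = 4; exact sign-flip p = 0.13, the smallest possible). The window with the widest gap in this direction (80806463 to 80810952, in intron 1) was at 68.3% ± 4.42 on the maternal and 85.3% ± 7.89 on the paternal allele (SD, n = 4). Its differences were -7.70, -19.3, -22.6 and -18.5 points.

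In the epiblast the mean of this side lay near 0. Over the 16 windows with both alleles in all 4 epiblast libraries the mean difference was 0.273 points ± 3.12 (SD, n = 4), with 10 windows above 0 and 6 below. The tissues differed by 7.16 points (-7.16, exact permutation test of 4 against 4 libraries, two-sided p = 0.0286, the smallest possible). Over the same 16 windows in both tissues, a comparison added after the values were seen, ExE averaged -5.68 points ± 3.78 (SD, n = 4) and the difference between tissues was -5.95 points (exact permutation p = 0.0857). The windows of this side share the libraries and are not replicates of each other.

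**Figure D3:**
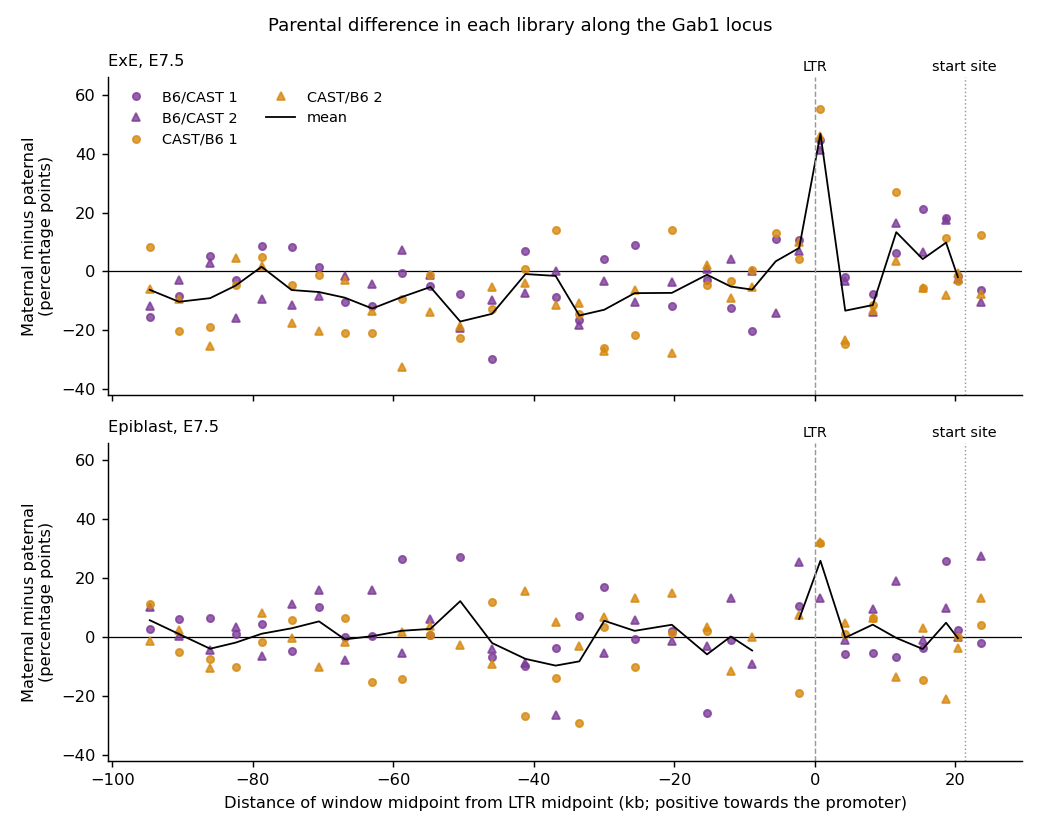
Maternal minus paternal methylation in percentage points in each E7.5 library along the Gab1 locus, with B6/CAST in purple, CAST/B6 in orange and the mean as a line, for ExE (top) and epiblast (bottom). In ExE the LTR window stands at 41.2 to 55.2 points, while the means of the other windows lie between -17.0 and 13.3 points.

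On the promoter side the sign changed in the next window. In the adjoining window (80861334 to 80865689) the paternal allele was the higher one in 4 of 4 ExE libraries. The maternal allele was at 73.2%, 67.3%, 66.2% and 60.3%, and the paternal allele at 75.03%, 70.6%, 91.0% and 83.7%. The difference was small in B6/CAST (-1.83 and -3.26 points) and large in CAST/B6 (-24.8 and -23.4 points), so that its size went with the cross. Its mean was -13.3 points ± 12.5 (SD, n = 4; limma SE 3.82, unadjusted p = 0.013, adjusted p = 0.78). The B6 allele was the more methylated by 10.8 points (limma SE 3.82, unadjusted p = 0.030, adjusted p = 0.55). In the epiblast this window was at 88.0% ± 2.39 on the maternal and 88.2% ± 2.90 on the paternal allele (SD, n = 4).

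The window after it (80865694 to 80869160) also had paternal higher in 4 of 4 ExE libraries, at -7.50, -13.9, -11.3 and -13.0 points. Then the sign changed again: in the window at 80869161 to 80872394 maternal was higher in 4 of 4, by 6.42, 16.5, 27.1 and 3.40 points, at a lower level of both alleles (54.5% ± 4.89 maternal and 41.1% ± 11.1 paternal, SD, n = 4). In the window from 80872527 to 80876558 the sign followed the cross, with 21.2 and 6.61 points in B6/CAST and -5.46 and -5.55 in CAST/B6, a pattern found in 15.9% of all windows. Over the 6 windows between LTR and promoter with both alleles in all ExE libraries, the mean was 0.112 points ± 6.01 (SD, n = 4; exact sign-flip p = 1), from -13.3 to 13.3 in single windows. It was 5.82 and 3.51 points in the B6/CAST libraries and -1.07 and -7.81 in the CAST/B6 libraries, so that its sign went with the cross. Over the 4 of these windows with both alleles in all libraries of both tissues, as added above for the gene-end side, ExE averaged -5.62 points ± 6.54 (SD, n = 4) and the epiblast -0.0804 ± 2.77 (SD, n = 4), with no call (exact permutation p = 0.171).

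In all, 10 of the 31 locus windows tested in ExE had an unadjusted p under 0.05 for the parental difference in limma, 2 with maternal and 8 with paternal higher. Over the genome 6.38% of windows did. None of the 31 passed the adjusted threshold. The LTR window was the only one of the 10 whose difference exceeded 20 points.

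At the promoter methylation was nearly absent. The 3 E7.5 windows between 80879327 and 80880639 are short because CpGs are dense there, and with alleles together they ranged from 0 to 3.54% in all 8 libraries. The window with the start site (80880165 to 80880639) was at 0.761% ± 0.738 in ExE and 2.51% ± 0.747 in the epiblast (SD, n = 4), a difference of -1.75 points (limma SE 1.90, adjusted p = 0.41). The 4 ExE values, from 0 to 1.77%, were all below the epiblast values, from 1.90 to 3.51% (exact permutation p = 0.0286, the smallest possible), a gap of at most a few points at the floor of the scale.

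No E7.5 library had a value for either allele in the start-site window, so the parental difference could not be measured there. The nearest short window with both alleles in all libraries (80879327 to 80879764, at the end of exon 1) was chosen in its place after the values were seen. Its maternal allele was at 0, 0, 0 and 0.926% and its paternal allele at 1.59%, 2.44%, 3.23% and 1.35% in the ExE libraries. The difference was -1.92 points (limma SE 3.83, adjusted p = 0.96) in ExE and -0.337 in the epiblast (SE 3.85, adjusted p = 1.00). Between this window and the LTR, the window at 80876559 to 80879171 was intermediate, at 30.5% ± 8.34 on the maternal and 20.7% ± 6.98 on the paternal allele in ExE (SD, n = 4).

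At E6.5 the window borders were different and cut the LTR in 2. The window on the gene-end side (80855753 to 80859248) holds 5 of its 6 CpGs and is taken as the LTR window; the next one towards the promoter (80859254 to 80863935) holds 1. Since alleles were not separated, the data at this day give their average only, and since the libraries were prepared differently from those at E7.5, the days were set side by side without a test.

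In wild-type ExE the E6.5 LTR window was at 40.6% and 39.8% in B6/CAST and at 62.0% and 68.0% in CAST/B6. In the epiblast it was at 48.7%, 83.8% and 82.9% in B6/CAST (the last of these libraries carries no matching replicate number) and at 90.9%, 88.0% and 79.8% in CAST/B6. ExE thus lay below the epiblast except for 1 B6/CAST epiblast library. The difference was -26.4 points (limma SE 6.64, adjusted p = 0.0063; exact permutation p = 0.0381, two-sided), the largest fall among the 22 locus windows tested, with -23.8 points in the second LTR window (SE 4.61, adjusted p = 0.0019). Of those 22 windows 14 were lower in ExE and none higher, against 59.6% lower and 0.663% higher over all windows. The E7.5 LTR window, at -30.7 points, covers different sequence: most of the E6.5 LTR window lies in its gene-end neighbour (-24.1 points), and most of the E7.5 LTR window lies in the second E6.5 window.

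**Figure D4:**
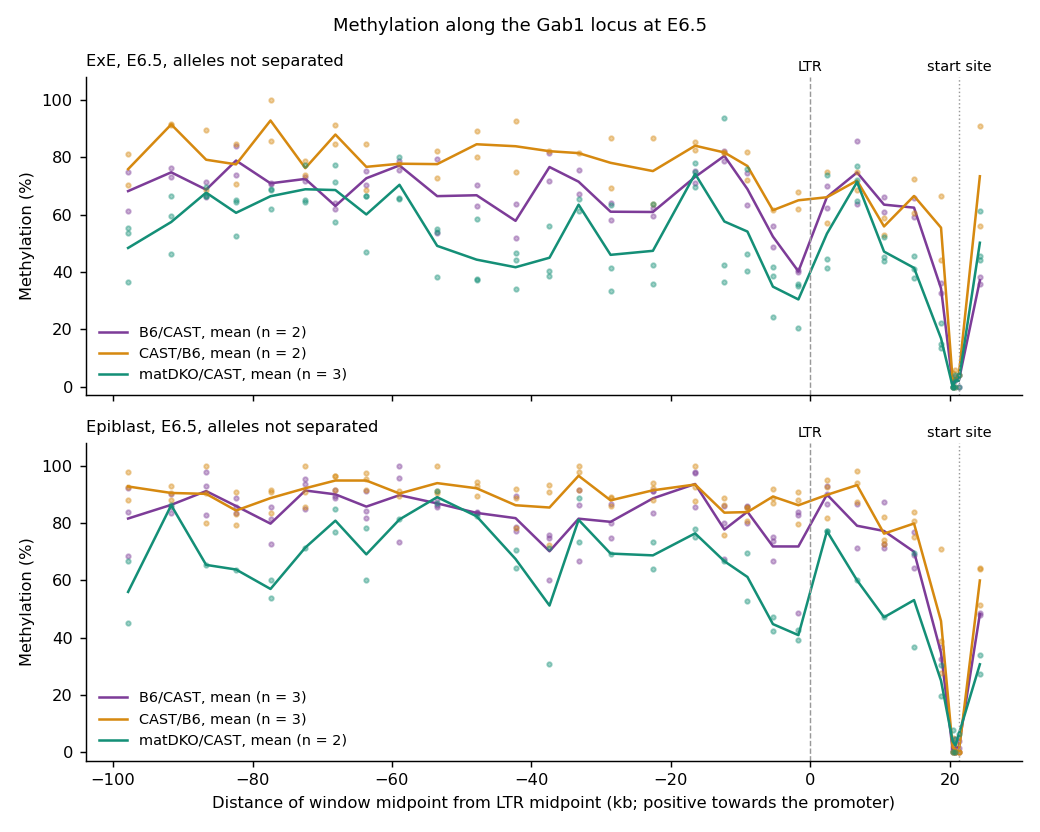
Percent methylation along the Gab1 locus at E6.5 for B6/CAST (purple), CAST/B6 (orange) and matDKO/CAST (green), in ExE (top) and epiblast (bottom), against the distance of the window midpoint from the LTR midpoint in kb; points are libraries and lines are group means over the libraries with a value. In ExE the LTR window stands at 40.2% in B6/CAST, 65.01% in CAST/B6 and 30.4% in matDKO/CAST, and all groups are near 0 at the start site.

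With the library mean subtracted, the E6.5 difference of the LTR window between the tissues shrank to -9.86 points and was no longer called (limma adjusted p = 0.24). That of the second LTR window shrank to -7.23 points (exact permutation p = 0.248). On that scale limma called 21893 of 250886 windows higher in ExE and 15525 lower. The libraries of the 2 crosses also differed in overall methylation: in ExE the library means were 50.5% and 50.6% in B6/CAST and 64.5% and 61.8% in CAST/B6. The LTR window was 24.8 points higher in CAST/B6 than in B6/CAST (limma SE 7.48, unadjusted p = 0.010, adjusted p = 0.13), against a median of 11.5 points over all windows. The second LTR window was at 66.1% ± 5.28 in B6/CAST and 66.1% ± 12.6 in CAST/B6 (SD, n = 2). In the epiblast the crosses differed by 14.4 points in the LTR window (limma SE 9.25, adjusted p = 0.46), and by 2.84 points without B6/CAST replicate 1.

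The maternal knockout was read from matDKO/CAST against B6/CAST, the cross with the same father. In ExE the LTR window was at 20.3%, 35.6% and 35.2% in matDKO/CAST, all below the B6/CAST values of 40.6% and 39.8%. The difference was -9.80 points (limma SE 6.83, adjusted p = 0.35; exact permutation p = 0.2, the smallest possible). It was -4.77 points without matDKO/CAST replicate 1 (adjusted p = 0.63) and -22.2 points against both wild-type crosses (limma adjusted p = 0.072). It was no larger than that of the rest of the genome, whose median was -12.4 points. With library means subtracted it turned to 2.16 points (adjusted p = 0.98). Of 28 locus windows with values in all these libraries, 13 had every matDKO/CAST value below both B6/CAST values, against 47.7% of all windows, and 11 of 25 had every one below all 4 wild-type values, against 42.8%. By limma none of 254322 windows was called in this comparison, and 25.8% had an unadjusted p under 0.05, as did 6 of the 25 locus windows, all lower.

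In the epiblast the matDKO/CAST libraries stood at 39.2% and 42.6%. They were below all B6/CAST values of 48.7%, 83.8% and 82.9%. In 11 of the 17 locus windows with values in all these libraries both matDKO/CAST values lay below every B6/CAST value, against 49.4% of all windows, and in 11 they lay below all 6 wild-type values, against 47.3%. The difference of the LTR window was -31.0 points (limma SE 10.3, adjusted p = 0.059), the largest of the 17 locus windows tested. Without B6/CAST replicate 1, whose 48.7% lies apart from the rest, it was -42.5 points and was called (limma adjusted p = 0.014), in a fit that called 55426 of 192623 windows. Leaving out any other single library gave -32.6 to -24.9 points and no call. Against both wild-type crosses the difference of the LTR window was -38.2 points (limma adjusted p = 0.016), in a fit that called 91792 of 192419 windows. The neighbour towards the gene end (80851960 to 80855731) fell, from a B6/CAST mean of 71.8% ± 4.51 (SD, n = 3) to 44.7% ± 3.54 (SD, n = 2), a difference of -27.1 points that passed the threshold (limma SE 5.33, adjusted p = 0.017). The neighbour towards the promoter, which holds the last LTR CpG, had a B6/CAST mean of 89.9% ± 3.06 (SD, n = 3) and a matDKO/CAST mean of 77.2% ± 0.134 (SD, n = 2; -12.8 points, limma adjusted p = 0.13). Of the 17 windows 4 were called, all lower, which is 4 of 17 against 23.4% of all windows, and the genome-wide median difference was -16.4 points. The 45064 windows called genome-wide fell to 10485 without the unnumbered B6/CAST library and to 20818 without B6/CAST replicate 3. On the logit scale and with library means subtracted limma called 0 windows, that neighbour included, with 53792 and 34574 at an unadjusted p under 0.05.

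Set against the library mean, the LTR window of the matDKO/CAST epiblasts was 13.8 and 8.57 points below it (-13.8 and -8.57). Those of the B6/CAST epiblasts were at -15.2, 14.0 and 9.66 points and those of the CAST/B6 epiblasts at 12.9, 10.8 and 1.49 points. Relative to its library, then, the window was low in both knockout epiblasts and in 1 of 6 wild-type epiblasts. The difference from B6/CAST on this scale was -14.0 points (limma adjusted p = 0.43; exact permutation p = 0.6). In ExE the matDKO/CAST libraries were at -19.0, -3.59 and -1.97 points and B6/CAST at -9.97 and -10.7. These libraries do not separate the parental alleles.

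**Figure D5:**
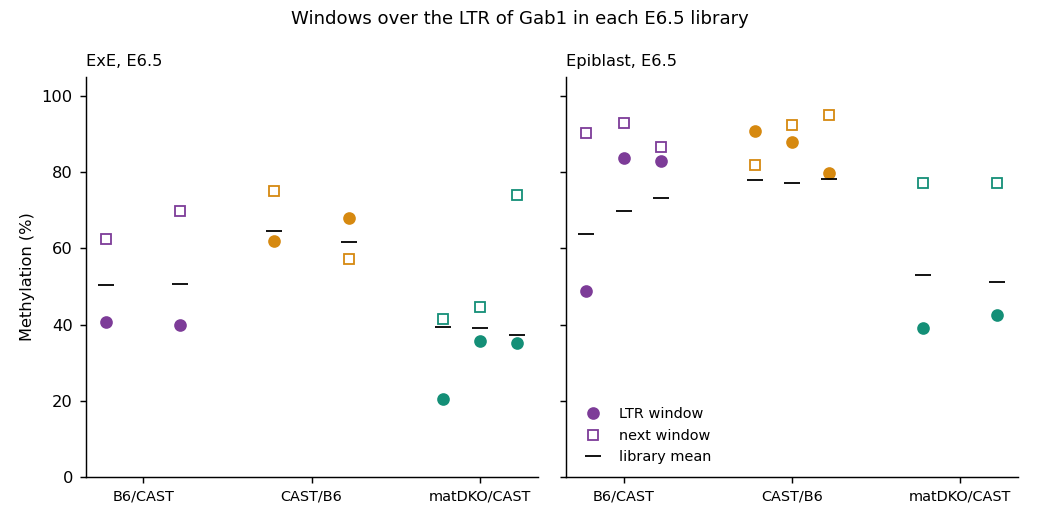
Percent methylation of the E6.5 LTR window (filled circles) and of the next window towards the promoter, which holds the last LTR CpG (open squares), in each library by tissue and cross, with a bar for the library mean over autosomal windows. The LTR window of the 2 matDKO/CAST epiblasts lies at 39.2% and 42.6%, below their library means, while the next window lies at 77.1% and 77.3%.

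The E6.5 start-site window was low in every group. The window (80880238 to 80880779) ranged from 0 to 6.25% over the 12 E6.5 libraries with a value. In matDKO/CAST it was at 4.17% and 0 in ExE and at 6.25% in the 1 epiblast library with a value. In CAST/B6 epiblasts it was at 0 in all 3 libraries.

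The start-site windows of genes that act with GAB1 were read from a list of 16: receptors and a ligand (Met, its ligand Hgf, Egfr, Fgfr2), adaptors (Grb2, Sos1, Shc1, Crk, Crkl), effectors (Ptpn11, Pik3ca, Pik3r1, Plcg1, Map2k1) and the family members Gab2 and Gab3. At E7.5, 13 of them were below 10% in every library of both tissues, like Gab1. The exceptions were Hgf, Map2k1 and X-linked Gab3. The share of all start-site windows below 10% was not determined, so the count does not set these genes apart. Windows near 0 in both tissues also leave little room for a difference between them. Hgf, which encodes the ligand of MET, was the only 1 of 15 autosomal genes called between the tissues, lower in ExE at 38.7% ± 7.69 against 55.5% ± 7.51 in the epiblast (SD, n = 4; limma adjusted p = 0.0058, against 84.2% of all windows called). Of the 7 with both alleles in all ExE libraries none was called by limma for a parental difference (0.00722% of all windows were), and 1, Hgf, had an unadjusted p under 0.05 (6.38% of all windows did), at 17.6 points with an adjusted p of 0.78. The other 6 lay between -3.02 and 0.200 points.

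Among 239223 autosomal windows with the same 15 allele values, the 5 outside the locus closest to the LTR window were found by the root mean square difference over those values, and 3 of them are described. The closest was a window in Gpr1 on chromosome 1 (63196901 to 63200268), at a distance of 10.6 points, with 76.8% ± 15.3 on the maternal and 39.8% ± 8.08 on the paternal allele in ExE and 88.5% and 74.1% in the epiblast. The others were 1 window between genes on chromosome 11 (12061861 to 12071780, 10.8 points) and 1 in Grb10 on the same chromosome (11995671 to 12006129, 11.8 points). Over these 3 windows the mean maternal level in ExE was between 70.1% and 76.8% and the mean paternal level between 38.0% and 45.1%, against 80.5% and 33.8% in the LTR window. The paternal values of the 2 windows on chromosome 11 varied widely between libraries, with an SD of 18.1 and 18.95 (n = 4). A total of 93 windows lay within 15 points.

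The tissue labels were read against the start-site windows of 3 marker genes. Pou5f1 and Nanog, factors of the pluripotent epiblast, were more methylated in ExE than in the epiblast (38.9% ± 2.28 against 18.1% ± 5.91, and 56.4% ± 4.58 against 42.9% ± 3.75; SD, n = 4). Elf5, a trophoblast factor, was less methylated in ExE (63.9% ± 3.65 against 85.9% ± 5.06; SD, n = 4), in a window of 4811 bp that reaches well beyond its start. Of all windows 82.9% were called lower in ExE and 1.3% higher, with a median difference of -16.5 points. The Elf5 difference of -22.0 points thus had the direction of most windows and says little about the tissue.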

How the data were processed

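DNA methylation had been measured by PBAT, a bisulphite method for small inputs, in 15 E6.5 and 8 E7.5 libraries. Reads had been trimmed and mapped by the authors with Bismark (version 0.20.0 with Trim Galore 0.4.4 in the submitters' processing notes of the E6.5 samples) on GRCm38 masked at strain SNPs, and E7.5 reads had been assigned to the parental genomes. The 3 deposited tables give percent methylation, without coverage, in windows of 100 CpGs. Counted as CpG dinucleotides of the reference, the E7.5 windows of the locus hold 44 to 55. The E7.5 bisulphite conversion had been repeated because the first was poor, per the labels. The names of 5 columns mention a reimport, without explanation, and 1 column could be matched to its group only. Replicates are separate embryos or pools.

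Percentages were used as deposited. The maternal minus paternal difference within a library, and the percentage, were tested over all autosomal windows with limma 3.58.1 (R 4.3.3, eBayes defaults), with the cross as covariate, and Benjamini-Hochberg adjusted p under 0.05 was called. Single values were compared with exact tests in scipy 1.17.1 (Python 3.11.15). The limma steps were tested on simulated data, where that for matDKO/CAST in ExE called none of the windows given a change of the single size simulated. Gene models were GENCODE vM21. The LTR window was the window overlapping the LTR most. All windows of the locus were described; named were the LTR window, its neighbours, the promoter window, 16 pathway genes and the 5 windows most like the LTR window, at least 50 kb apart. Another pathway gene, besides these 16, and 2 of these 5 windows are not reported here. The members and lists were chosen with earlier results of these data known. Alternatives were the logit scale, eBayes settings, cross term, replicate block, missing values, centring, LTR window rules and leaving out each library.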

Additional observations from a re-analysis of the deposited data

Results flagged for a closer look

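The LTR window at E6.5 was at 48.7% in 1 wild-type epiblast library, B6/CAST replicate 1, while the other 5 lay between 79.8% and 90.9%. The gap to the next library was 0.736 of the whole range. The library had the lowest mean over autosomal windows of the wild-type epiblasts, 63.9%, and its second LTR window was at 90.2%. Their part in the low value was not tested. The start-site window at E6.5 was at 4% in 1 B6/CAST epiblast library, the one without a replicate number, while the other 5 lay between 0 and 1.43%. Among 15 groups of values examined in this way, the rule nominally flags about 1 in 20 by chance, a rate not measured here.

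In the window from 80802460 to 80806462, in intron 1, the paternal allele was higher in all 4 ExE libraries (mean difference -5.28 points) and the maternal allele was higher in all 4 epiblast libraries (2.80 points). The limma interaction for this window was -8.08 points (SE 5.55, adjusted p = 0.91), so the difference between the tissues was not called.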

How the results depend on the processing

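Of the settings other than leaving out a library, 60 of 72 were labelled the same, as were 86 of the 91 that left out 1 library. For the limma fits this meant the same direction and the same side of the threshold. For the side means it meant the same sign and a distance from the main value within its SD. For the extent it meant a similar number of windows, so that 3 in place of 2 counted as the same. The mean of the promoter side in ExE, near 0, turned to -1.64 points as a median over windows and to -5.62 over windows complete in both tissues, an alternative chosen after seeing the data, and lay between -1.79 and 2.75 on leaving out a library (-1.79 and -1.02 without B6/CAST replicates 1 and 2). The extent in ExE fell from 2 windows to 1 with a minimum of 20 points and to 0 with an adjusted p under 0.05, and rose to 3 without B6/CAST replicate 2. The LTR parental difference in ExE was called on the logit scale (3.04, adjusted p = 0.029), over alternatives with adjusted p from 0.029 to 0.97. Over windows within 5 kb of the LTR it was 13.8 points in ExE and 11.2 in the epiblast, much closer to each other than in the LTR window. The promoter difference at E7.5 was called on the logit scale (-1.09, adjusted p = 0.0047), and turned to 14.6 points with the library mean subtracted, since the promoter is near 0 in both tissues and the means differ. At E6.5 the LTR difference between the tissues was -9.86 points with the library mean subtracted (adjusted p = 0.24). That of matDKO/CAST from B6/CAST turned to 2.16 points in ExE. In the epiblast it was -31.0 points (adjusted p = 0.045) with a trended and robust prior and -38.2 points (adjusted p = 0.016) against both wild-type crosses. Those fits called 48883 and 91792 of 192419 windows.

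Leaving out each library gave, in points, 44.4 to 49.1 for the LTR parental difference in ExE and 22.7 to 32.2 in the epiblast, -42.5 to -24.9 for matDKO/CAST in the epiblast, and -1.30 to 0.625 for the epiblast exon 1 window, which turned to 0.288 without B6/CAST replicate 2 and to 0.625 without CAST/B6 replicate 2. A lone library was assumed to vary like the other groups. Replicate numbers were not used to pair the samples in the main fits (correlations of deviations -0.0579 to 0.0263 over 27 pairs at E6.5 and -0.0538 to 0.0506 over 12 at E7.5). In a group of 2 libraries the deviations mirror each other, so the E7.5 pairs repeat each other's values. The highest at E7.5 were those of epiblast with ExE of the same cross (0.0506 in B6/CAST and 0.0486 in CAST/B6). Whether such tissues came from the same embryo is not settled by this, and the tests between tissues treated libraries as independent. With a replicate block, which at E6.5 leaves out the library without a number, the E6.5 LTR difference between the tissues was -20.3 points. It was then no longer called (limma adjusted p = 0.071). The LTR parental difference in ExE was 46.7 points with the block (limma adjusted p = 0.35). For matDKO/CAST against B6/CAST in the E6.5 epiblast the block called 0 of 192789 windows, against 45064 of 192419 without it. The planned promoter parental difference, for want of allele values, and the block for the epiblast parental difference at the LTR, with 3 libraries, were not run. Depth is unknown and limits every value.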
